A study of Drosophila melanogaster with 3 samples.

Results

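Translation factors and aminoacyl-tRNA synthetases, here called the translation genes, were examined for binding of su(Hw), a zinc finger protein of Drosophila melanogaster chromatin insulators. They were chosen by a rule on the symbol, set with earlier results of these data known. Of the 13968 protein-coding genes of the annotation, 83 fit the rule. Their symbol begins with eIF or eEF and a number, or joins an amino acid code to RS, with or without the suffix -m for mitochondrial. The data are chromatin immunoprecipitation sequencing of whole embryos of 0 to 24 hours, both sexes pooled, in 3 biological replicates of 1 group. All embryos came from a transgenic line that stably expresses su(Hw) with green fluorescent protein fused at its C terminus, and the labels' description gives the tag as the antibody's target, where another label names su(Hw). The labels do not state whether this line also carries the untagged protein. There was no second condition, so no difference between conditions could be measured.

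Protein synthesis begins when initiation factors place the small ribosomal subunit, with the initiator tRNA, on a start codon and the large subunit joins. Elongation factors then bring aminoacyl-tRNAs to the ribosome and move it along the message. Aminoacyl-tRNA synthetases attach each amino acid to its tRNA, with separate enzymes for the cytosol and the mitochondrion or 1 enzyme for both places. Many of these are housekeeping genes, and early embryos also regulate translation of stored maternal messages through the cap-binding step. Housekeeping promoters of the fly often carry the element of DREF, a zinc finger factor of such promoters, and many ribosomal protein genes start at a pyrimidine-rich initiator called TCT. The protein su(Hw) is best known for the gypsy insulator and binds a 12-base consensus.

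The deposited peak lists give each peak a summit and a signal, a value of the authors' peak caller on an undefined scale, which served only to rank peaks within a list. There were 30000 peaks in the pooled list and in each replicate's own list, weak peaks included. The authors label the pooled list as peaks and background, so a summit outside the thresholded list may be background. The list that the authors thresholded for reproducibility between replicates held the strongest 6127 of the pooled list. A rank of 1 is the strongest peak, and a summit was called top-ranked in a replicate when a summit within 200 bp was among that replicate's strongest 6127. Where summits lie about 200 bp apart, the same replicate peak can match both. The replicate lists had no identical peaks in common. The number of reads is unknown, and intervals are exact (Clopper-Pearson) 95% intervals that cover counting error only. In whole embryos, a higher signal in few cells and a lower signal in many cells cannot be told apart.

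Of the 83 translation genes, 40 had a thresholded summit in the gene body or within 1 kb of it, or 48.2% (interval 37.1 to 59.4). The share over all protein-coding genes was 37.1%, which is also the lower bound of that interval. An own-promoter summit, from 1 kb upstream to 100 bp downstream of a protein-coding transcript start of the gene, was found for 31 translation genes, or 37.3% (27 to 48.7), against 26.4% of all genes. Promoter windows and starts of other genes were also taken from protein-coding genes only. A summit top-ranked in all 3 replicates was present at 34 translation genes, or 41%, against 28.6% of all genes. The median gene length was 2522 bp, against 2164.5 bp over all genes. Among genes between 1724.5 and 3825.5 bp, the middle of the translation genes' own range, 18 of 41 (43.9%, 28.5 to 60.3) had a thresholded summit, against 35.6% of all genes of that length. The interval includes the share of all genes there.

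A further 25 translation genes had a summit only among the unthresholded peaks of the pooled list, out of 43 without a thresholded summit, and 18 had none. Over all genes without a thresholded summit, 45.4% had an unthresholded one. By role, thresholded summits were at 21 of 44 initiation factors (47.7%), 6 of 7 elongation factors (85.7%, interval 42.1 to 99.6), 10 of 17 cytosolic synthetases (58.8%, 32.9 to 81.6) and 3 of 15 mitochondrial synthetases (20%, 4.33 to 48.1). The intervals of these groups overlap. Synthetases are called cytosolic here when the symbol lacks -m, which can include enzymes that serve both places. Without replicate 3, counting only summits top-ranked in both other replicates, elongation factors with a summit numbered 3 in place of 6, against 30.3% of all genes under the same filter. Where summits were found, the strongest summit of a gene had a median pooled rank of 2112, against 2563 over all genes with a summit.

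**Figure D1:**
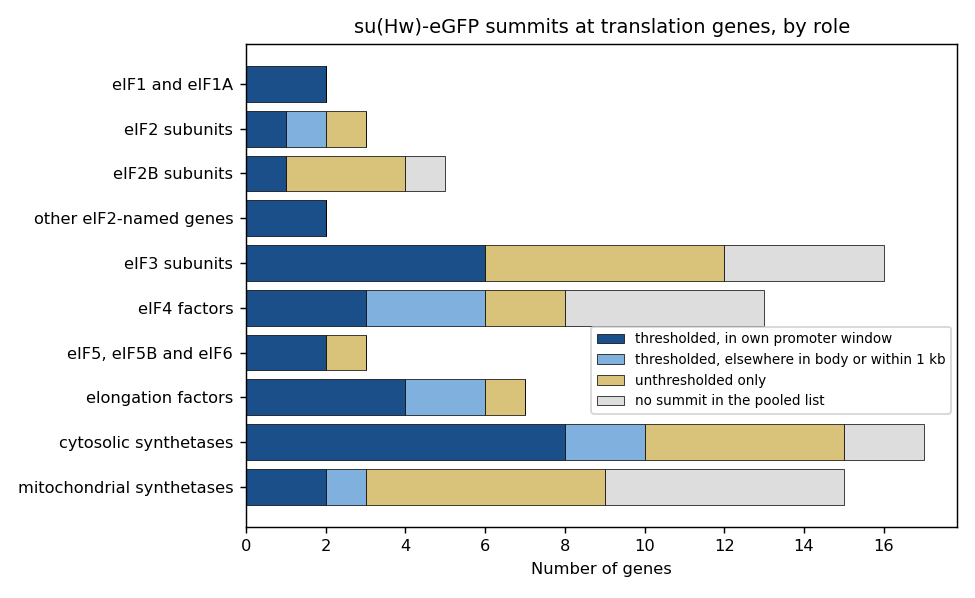
Number of translation genes (x axis) in each role group (y axis), split by where the strongest class of su(Hw)-eGFP summit lay: own promoter window, elsewhere in the body or within 1 kb, unthresholded peaks only, or none. The 7 elongation factors include 6 with a thresholded summit, the 15 mitochondrial synthetases 3.

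The sequences that carry the strongest summits show how the protein's consensus lay at these genes. The consensus, with up to 1 mismatch and on either strand, was within 100 bp of 16 of the 66 thresholded summits of the translation genes, or 24.2% (14.5 to 36.4), against 21.6% of all 6127 thresholded summits. The sites below belong to the 9 genes with the strongest such summits among those whose sequence was read, with an exact match added for eIF5B, in Release 6 (dm6) coordinates of the RefSeq genome. They are written 5′ to 3′ on the strand named, with the matched 12 bases in capitals and 9 bases on each side.
ArgRS-m, chr3R:7886421-7886450, minus strand: gctaaaaagTATTGCATACCAcggggctgt
eIF5B, chr3L:3457087-3457116, minus strand: attaggattCATAGCATACTTttcggcgac
eIF5B, exact match, chr3L:3445542-3445571, plus strand: tgccagaatCGTTGCATACCTaagggggac
eIF3f1, chr3R:4712293-4712322, minus strand: atatattcgTAATGCATACTTttgggcgaa
eIF4EHP, chr3R:24109265-24109294, minus strand: cagcggtgtTGCTGCATTCTTaaaaaatat
eIF4E5, chr3L:7896055-7896084, plus strand: tgtgtaattCGTTGCCTACTTtgcagcttc
IleRS, chr3L:22288437-22288466, plus strand: tttcaaaacTATTGCATAGTTtattcattc
eIF4E7, chrX:1162083-1162112, plus strand: agcccaactTTTTGCATACTTtcggggatt
eIF1, chr3L:3223168-3223197, plus strand: taatattttTGTAGCATATTTttagaatat
AsnRS, chr2L:19132008-19132037, minus strand: aaatcaaatTATTGCATTTTTaaactttca
For the 15 summits whose site was read, the median distance between the centre of the site and the summit was 36 bp, and 10 were no more than 50 bp apart. The site of eIF3f1 was 4 bp from its summit, that of the strongest eIF5B summit 6 bp, and those of ArgRS-m and eIF4EHP 84 and 90 bp.

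The other sequence at several of these genes was TATCGATA, the DREF element, which also counts as a pair of CGATA, the sequence searched for the insulator protein BEAF-32. It was within 100 bp of 10 of the 66 summits, or 15.2% (7.51 to 26.1), against 4.18% of all thresholded summits. The initiation and elongation factor summits below show the element in its surroundings, 5′ to 3′ in Release 6 coordinates on the strand named, with TATCGATA in capitals.
eEF1gamma, chr3R:29220086-29220183, plus strand: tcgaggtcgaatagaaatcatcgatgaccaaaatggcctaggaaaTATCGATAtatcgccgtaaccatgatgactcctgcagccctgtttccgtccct
eIF3a, chr3R:4433881-4433978, minus strand: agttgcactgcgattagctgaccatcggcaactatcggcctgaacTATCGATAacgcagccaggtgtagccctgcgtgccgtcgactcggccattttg
eIF3f1, chr3R:4714153-4714235, minus strand: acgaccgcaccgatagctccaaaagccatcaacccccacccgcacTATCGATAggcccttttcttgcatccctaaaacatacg
eIF1A, chr3R:18274418-18274515, plus strand: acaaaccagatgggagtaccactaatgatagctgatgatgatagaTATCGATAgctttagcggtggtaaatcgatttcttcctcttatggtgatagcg
eIF1, chr3L:3223000-3223097, plus strand: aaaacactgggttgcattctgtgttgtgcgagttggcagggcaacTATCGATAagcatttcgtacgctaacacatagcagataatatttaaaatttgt
eIF4E1, chr3L:9399357-9399462, minus strand: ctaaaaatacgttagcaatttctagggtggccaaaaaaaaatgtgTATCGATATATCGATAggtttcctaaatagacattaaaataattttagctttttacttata
In eEF1gamma and eIF3a the element lay 4 bp from the summit. The sequence of eIF4E1 holds the element in a repeated form and lies past the 3′ end of the gene, in the promoter window of CG4080.

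Both factors that open the search for the start codon had a summit in their own promoter window. For eIF1, which guards the choice of start codon, 2 thresholded summits lay between its start on 3L and that of RpL28, a ribosomal protein gene 381 bp away on the other strand. The stronger summit, at 3223038, ranked 1321 in the pooled list and 1454, 1449 and 1234 in replicates 1, 2 and 3, lay 303 bp upstream of eIF1 and 78 bp from the start of RpL28, and had the DREF element. The weaker summit, at 3223237 and pooled rank 1929, lay 104 bp upstream of eIF1, had the su(Hw) consensus with 1 mismatch and matched the same replicate peaks. For eIF1A, which works beside eIF1 on the small subunit, the summit 120 bp upstream ranked 3191, with 5086, 3624 and 2800 in the replicates. It lay between eIF1A and Vps39, and was lowest in replicate 1.

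The factor eIF2 carries the initiator tRNA to the small subunit, and phosphorylation of its alpha subunit lowers translation under stress. Thresholded summits lay at 2 of its 3 subunits. At eIF2beta the stronger summit (pooled rank 1493; 1441, 1651 and 1600 in the replicates) was 917 bp past the 3′ end, in the promoter windows of Gcn5, a histone acetyltransferase gene, and ver. The weaker summit (pooled rank 4834; 5429, 4153 and 6343) lay 2 bp from the start of eIF2beta itself, in the 5′ UTR, with the promoter motif GGTCACAC. The summit of eIF2gamma (pooled rank 3418; 4111, 3766 and 3159) lay in its 3′ UTR with a consensus match, 5049 bp from its start. At eIF2alpha there were 3 unthresholded summits, of which the strongest lay 10 bp upstream of the start, with pooled rank 7394 and replicate ranks of 7416, 4242 and 22152. It was top-ranked in replicate 2 and far down in replicate 3.

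Of the 5 subunits of eIF2B, which reloads eIF2 with GTP, eIF2Bbeta had a thresholded summit. It was the third strongest among the translation genes, with pooled rank 290 and replicate ranks of 246, 364 and 289. It lay at 2703878 on X, 693 bp upstream of eIF2Bbeta but 26 bp from the start of Ugalt, a nucleotide sugar transporter gene on the other strand, and had neither the su(Hw) consensus nor any other sequence searched. The delta, epsilon and gamma subunits had unthresholded summits and eIF2Balpha had none. The genes eIF2A and eIF2D are not subunits of eIF2 despite their names. At eIF2A the summit (pooled rank 5125; 5079, 6665 and 5615) lay in the 5′ UTR of a longer transcript, 44 bp upstream of a later start of the gene. At eIF2D it lay 82 bp upstream of the start (pooled rank 4894; 5252, 5269 and 4851). Without replicate 1 or without replicate 3, only 1 of these 2 genes had a summit. That of eIF2A held the DREF element and GGTCACAC.

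The large scaffold complex eIF3 bridges the small subunit, other factors and the message. Of its 16 genes, 6 had a thresholded summit (37.5%, 15.2 to 64.6), 6 unthresholded summits only and 4 none. All 6 with a thresholded summit had 1 in the own promoter window, and the strongest of the others was at eIF3k, 14 bp upstream, with pooled rank 6838 (4899, 8335 and 9635). The summits nearest the start lay 75 bp upstream in eIF3c, 30 bp upstream in eIF3a, 41 bp upstream in eIF3f1, 52 bp upstream in eIF3d1, and 12 and 20 bp downstream in eIF3m and eIF3h. The summit of eIF3a ranked 1977 (2124, 1740 and 2299 in the replicates) and that of eIF3c 1858 (2435, 1798 and 1938). At eIF3m the summits had pooled ranks of 2864 (3220, 3420 and 3239) and 5998 (5742, 17192 and 3239), with the same replicate 3 peak for both. The summits of eIF3a, eIF3c and the stronger of eIF3m differed little between replicates, whereas that of eIF3d1, at 5525 in the pooled list, ranked 13715, 4048 and 6039.

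The strongest summit at an eIF3 gene was outside a promoter. It lay at 4712312 on 3R, 570 bp past the 3′ end of eIF3f1, in no promoter window, with pooled rank 576 and replicate ranks of 666, 559 and 578. The consensus site of eIF3f1 printed above is at this summit, and a second summit 366 bp past the end ranked 1694 (1582, 1819 and 1632). The start of the same gene had the DREF element and a weak summit of pooled rank 5214 (4747, 5117 and 6116). Within this 1 gene, the strong site past the 3′ end and the weak site at the start held different sequences.

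Where eIF3 subunits have a duplicate gene, the copies differed in class of site. The genes eIF3d1 and eIF3f1 had thresholded summits and eIF3g1 an unthresholded summit of pooled rank 6883 past its 3′ end, while eIF3d2, eIF3f2 and eIF3g2 had no summit in the pooled list. The same held for eIF4H1 and eIF4H2, helicase cofactors, with an unthresholded summit (pooled rank 7639) at the first and none at the second.

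The eIF4 group recognises the cap of the message. Thresholded summits were at 6 of its 13 genes (46.2%, 19.2 to 74.9) but in the own promoter window of 3, namely eIF4EHP, eIF4G2 and eIF4A. The gene eIF4EHP encodes a cap-binding protein that blocks translation, in the early fly embryo that of caudal and hunchback messages. It spans 24063077 to 24108960 on 3R and held 5 thresholded summits, as many as eIF5B and more than any other translation gene. Its strongest, at 24109190, lay 230 bp upstream, in the window shared with CG18428, with pooled rank 629 and replicate ranks of 536, 840 and 600. A consensus site with 1 mismatch lay within 100 bp, as at the intronic summit of pooled rank 3803. The other summits ranked 2262 and 4174 in introns and 5524 at 14 bp from the start of Syx1A, a syntaxin gene inside eIF4EHP. The last of these ranked 14452 in replicate 2 and 4397 and 4678 in the others.

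The cap-binding protein genes of the eIF4E series had summits in 3 of 6 cases, in none of them in the own promoter window. At eIF4E1, the main cap-binding protein, the summit was 273 bp past the 3′ end in the promoter window of CG4080 (pooled rank 4353; 4000, 4668 and 4189). At eIF4E5 it was 42 bp past the 3′ end (pooled rank 948; 1053, 934 and 943) and at eIF4E7 in an intron 285 bp from the start (pooled rank 1467; 1298, 1336 and 1880), both with a consensus site and in no promoter window. All 3 were top-ranked in every replicate, and eIF4E3, eIF4E4 and eIF4E6 had no summit in the pooled list.

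The helicase gene eIF4A had a summit 111 bp downstream of a start (pooled rank 3848; 3490, 5656 and 4471). It lies in the own promoter window because of another transcript of the gene. The scaffold genes differed, since eIF4G2 had a summit 132 bp upstream of its start (pooled rank 4347; 3249, 3679 and 4457), while the strongest summit of eIF4G1 on chromosome 4 was unthresholded, with pooled rank 25705 and a summit within 200 bp in replicate 3 only. The cofactor gene eIF4B had none.

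The last initiation factors act when the large subunit joins. The gene eIF5B encodes the GTPase of this step, spans 3428658 to 3460977 on 3L and held 5 thresholded summits. The strongest, in an intron 3508 bp from the start at 3457095, ranked 320 in the pooled list and 290, 341 and 340 in the replicates. A coding exon summit at 3445548 (pooled rank 3378; 3000, 3197 and 4299) held the exact consensus printed above. The own-promoter summit was weaker, with pooled rank 4282 (3927, 5419 and 5460) at 158 bp downstream of a start, in a window shared with CG46463 and armi. The other 2 ranked 3774 in an intron and 5354 in a coding exon, the latter with no replicate 2 summit within 200 bp and in the same pooled peak as the strongest.

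At eIF6, which keeps free large subunits from joining, the summit 89 bp upstream of the start on 2R ranked 895 (815, 997 and 918) and had the DREF element. It was the strongest summit with that element among the translation genes. At eIF5, which stimulates GTP hydrolysis by eIF2, there were 5 unthresholded summits and no thresholded summit. The strongest, of pooled rank 10162 (9715, 11992 and 9610), lay 74 bp past its 3′ end at the promoter of ND-20, and the next, of pooled rank 17150, 44 bp from its own start.

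Elongation factors had summits at 6 of 7 genes, in the own promoter window of 4. Only 3 of the 7 had a summit top-ranked in all 3 replicates, the same number as without replicate 3. The genes of the eEF1 exchange complex, which recharges eEF1alpha with GTP, differed from each other. The summit of eEF1gamma, 41 bp upstream of its start on 3R, ranked 1040 (901, 1323 and 1085) beside the DREF element. The summit of eEF1beta, in its 3′ UTR on 2R and 138 bp from the start of CG6426, ranked 684 (903, 757 and 605), and eEF1delta had an unthresholded intronic summit of pooled rank 13218.

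For eEF1alpha, which brings aminoacyl-tRNA to the ribosome, summits within the 1 kb limit were weak at both genes. Outside that limit, a summit 1226 bp upstream of eEF1alpha1 had pooled rank 2279. At eEF1alpha1 the 3 thresholded summits had pooled ranks of 5467, 5904 and 6043, each in an own promoter window, and at least 1 replicate put each of them outside its strongest 6127. The first ranked 5649, 8213 and 4908, the second 8100, 7438 and 5845, and the last 14024, 6003 and 5241. At eEF1alpha2 the summit, in the 5′ UTR 192 bp downstream of a start, ranked 4407 (4887, 6181 and 3953) and had a consensus site with 1 mismatch.

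The translocation factor eEF2 had a summit of pooled rank 4916 (6972, 4978 and 4852) 11 bp from a start, and another of rank 4106 (4167, 6480 and 4187) 96 bp past its 3′ end in the window of CG2225. Neither was top-ranked in all 3 replicates. For eEF5, the fly's eIF5A, which relieves stalled ribosomes, the summit 5 bp upstream of the start ranked 2295 (2678, 1823 and 2574). A second summit of eEF5, 865 bp past its 3′ end, lay 30 bp from the start of RpL12 and ranked 3573 (3297, 3124 and 5148).

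Among the cytosolic synthetases, HisRS had the strongest summit, and it was not at a promoter. It lay at 18520570 on X, 125 bp past the 3′ end of HisRS and inside an intron of Bx, a LIM-only transcription cofactor gene, with pooled rank 236 and replicate ranks of 252, 249 and 224. A neighbouring summit ranked 1127 (864, 899 and 586) and a coding exon summit 4603 (6372, 3081 and 5781). None of the 3 held the su(Hw) consensus with up to 1 mismatch.

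AspRS on 2R had 4 thresholded summits, of which 3 lay in promoter windows of Nmda1, a gene inside it. The strongest lay 86 bp past the 3′ end, in a promoter window of vg, a wing selector gene, with an exact consensus match and pooled rank 568 (690, 554 and 541). The others were weak, with pooled ranks of 3787, 4264 and 5121. The summits of rank 3787 and 4264 also lay in the own promoter window of AspRS. That of rank 3787 had no replicate 1 summit within 200 bp. The summit of rank 5121 ranked 5590, 9925 and 6653, so that only replicate 1 placed it among its strongest 6127.

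IleRS, SerRS, ThrRS, AsnRS, MetRS, ValRS and GlyRS had their summits in their own promoter windows, and each of these windows also belonged to a neighbour. The summit of IleRS, 177 bp upstream and shared with Hem, ranked 1119 (1243, 1185 and 1108) and held a consensus site. The summit of SerRS, 48 bp downstream of its start and shared with CG17260, ranked 1472 (1244, 1683 and 1583). In both genes every replicate placed the summit among its strongest peaks. At AsnRS, summits 105 and 304 bp upstream had pooled ranks of 2134 and 3398, and both matched replicate peaks of rank 2181, 2488 and 2096. Each held a consensus site with 1 mismatch, and the second also the DREF element. ThrRS, MetRS, ValRS and GlyRS followed with pooled ranks of 2090, 2696, 3839 and 4509, and ValRS varied most, with 4452, 8826 and 2621. At GlnRS the summit (pooled rank 4134; 4965, 3414 and 5239) lay 619 bp past the 3′ end in the promoter windows of CG11858 and Kdsr, with a consensus site.

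LysRS, TrpRS, AlaRS, CysRS and ArgRS had unthresholded summits only, and LeuRS and TyrRS none. The unthresholded summit of LysRS, 60 bp upstream of its start, had pooled rank 6160, just past the last thresholded peak, and ranked 5232, 5393 and 8013. TrpRS followed with 6687 (7073, 4943 and 9958) at 72 bp upstream, and AlaRS with 6796 (18271, 5858 and 5331) at 177 bp upstream. AlaRS also had a thresholded summit of pooled rank 4767 at 1161 bp, just outside the 1 kb limit.

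Thresholded summits were at 3 of 15 mitochondrial synthetase genes. The strongest summit of all translation genes was at ArgRS-m. It lay at 7886351 on 3R, with pooled rank 176, a signal of 4349 and replicate ranks of 150, 184 and 191, 694 bp upstream of ArgRS-m and in the 5′ UTR of its divergent neighbour CG17816, whose start is 382 bp away. The second summit, 487 bp upstream, ranked 823 (817, 731 and 191) and matched the same replicate 3 peak as the first. At LeuRS-m the strongest of 3 summits ranked 1250 (1255, 1464 and 1242), lay 983 bp upstream in an intron of Dhc64C, a dynein heavy chain gene, and was the summit nearest inside the 1 kb limit. The others ranked 2091 (1255, 4150 and 1242) and 5268 (10051, 4368 and 4803), the latter 84 bp from the LeuRS-m start in the window shared with Dhc64C. The summit of rank 2091 matched the same peaks of replicates 1 and 3 as the strongest. At SerRS-m the summit (pooled rank 2591; 3235, 3030 and 2635) lay past the 3′ end in the promoter window of Nagk.

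An unthresholded summit only was found at 6 more mitochondrial synthetase genes, of which AspRS-m, 1 bp from its start, ranked 6414 (13670, 9432 and 5016) and CysRS-m 6828 (8938, 10239 and 7264). The remaining 6, GluRS-m, IleRS-m, MetRS-m, PheRS-m, TyrRS-m and ValRS-m, had none. Among 12 amino acids with both a cytosolic and a mitochondrial gene in the set, both genes had a thresholded summit for serine only. The cytosolic gene alone had it for 5 (asparagine, aspartate, isoleucine, methionine and valine), the mitochondrial gene alone for 2 (arginine and leucine), and neither for 4 (alanine, cysteine, tryptophan and tyrosine). A divergent partner, meaning a gene that starts on the other strand within 1 kb upstream, was present for 15 of 17 cytosolic and 7 of 15 mitochondrial synthetases. Its part in the difference between these groups was not tested.

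**Figure D2:**
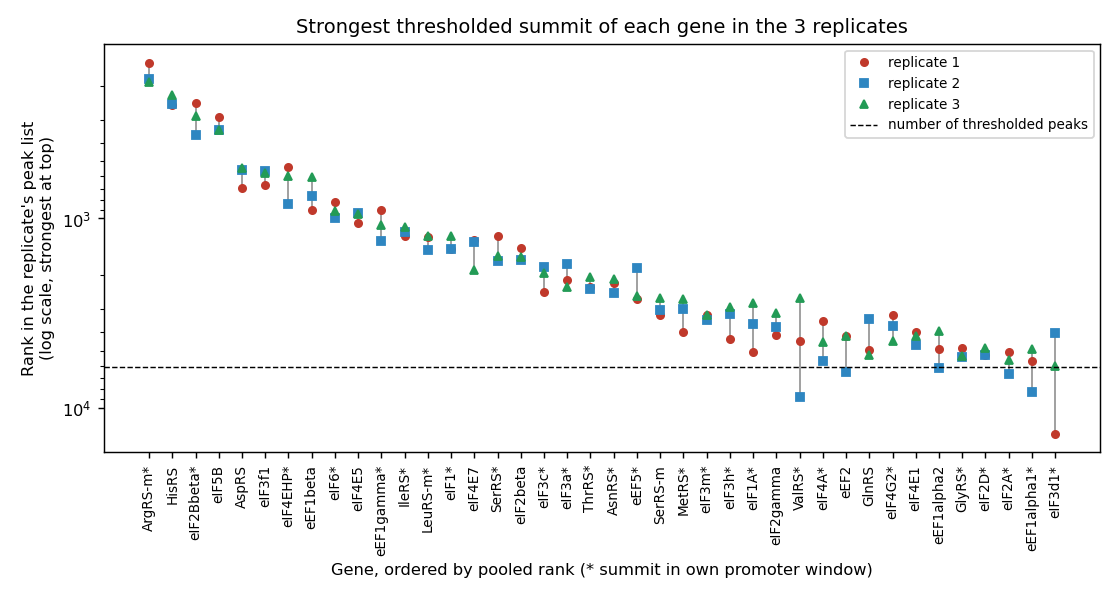
Rank of each translation gene's strongest thresholded summit in replicates 1, 2 and 3 (y axis, log scale, strongest at the top), with genes on the x axis in order of pooled rank and an asterisk where that summit is in the own promoter window. Ranks of ArgRS-m span 150 to 191 and those of eIF3d1 4048 to 13715, and the dashed line marks the 6127 peaks of the thresholded list.

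The 66 thresholded summits were distinct, with none shared by a pair of translation genes. Of these, 48 (72.7%) were top-ranked in all 3 replicates, 16 in 2 and 2 in 1, against 69.3% in all 3 over the whole thresholded list. All but 2 had a matching summit somewhere in every replicate list. These matches include replicate peaks shared by neighbouring summits, as at ArgRS-m. Some summits also lie in the same pooled peak, as at ArgRS-m, eIF3f1 and eIF5B. Intervals of summit shares count each of these summits separately, as if independent. The ratio of the highest to the lowest replicate rank had a median of 1.25 for the strongest 22 summits and 1.61 for the weakest 22. For the 15 genes with the strongest summits this ratio never passed 1.57, and all 15 were top-ranked in all 3 replicates.

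By position, 28 summits lay upstream of the gene, 12 past its 3′ end, 11 in introns, 10 in 5′ UTRs, 3 in coding exons and 2 in 3′ UTRs. An own promoter window held 40 of the 66, a promoter window of another gene only held 10, and 16 lay in none. Starts of noncoding genes were not searched. The strongest summit of a gene lay in its own promoter window in 26 of 40 cases, and in 8 of the 15 genes with the strongest summits. The median pooled rank was 3084.5 for own-promoter summits, 3839.5 for those in another gene's window only and 2820 for those in no promoter window.

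Where a translation gene had an own-promoter summit, the summit nearest the start lay close to it. Over these 31 genes the median position was 82 bp upstream, 25 were upstream, and 24 lay within 150 bp. The window reaches 1 kb upstream but 100 bp downstream, so most of it is upstream. The same values were not counted over all genes. The strongest summit of a gene was within 200 bp of an own start in 19 of 40 cases (47.5%), against 38.3% over all genes with a summit. Among the 25 genes with an unthresholded summit only, 17 had their strongest within 200 bp of a start and 17 had it in all 3 replicate lists.

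**Figure D3:**
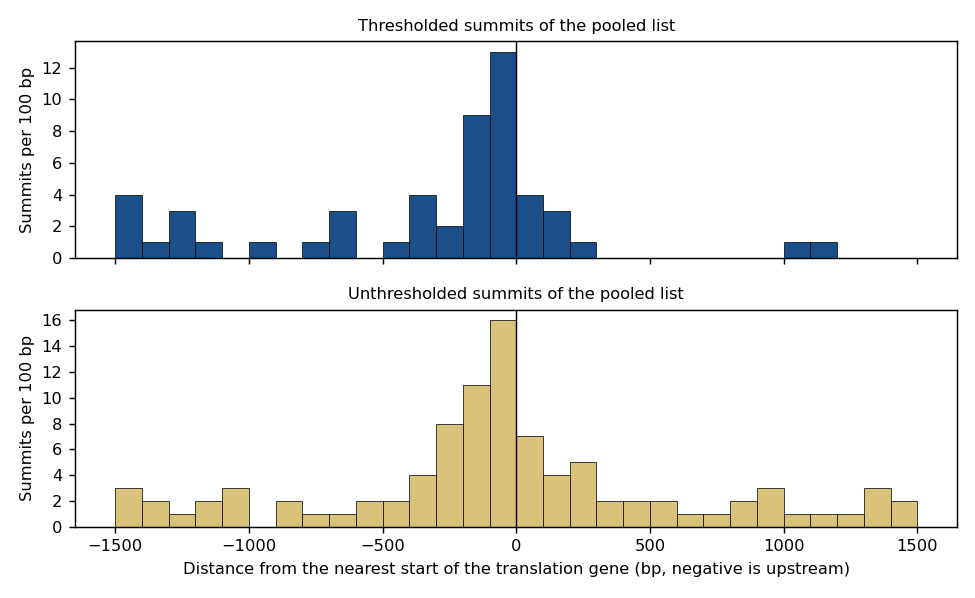
Number of summits per 100 bp (y axis) by distance from the nearest start of a translation gene (x axis, bp, negative is upstream) for thresholded (top) and unthresholded (bottom) summits within 1500 bp, including summits beyond the 1 kb limit. Of the 53 thresholded summits, 22 lie in the 200 bp upstream of a start, and of the 95 unthresholded ones 27.

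Many of these promoters serve a pair of genes. A divergent partner was present for 46 of the 83 translation genes (55.4%), against 35.2% of all genes. Among genes with such a partner, 25 of 46 translation genes (54.3%, 39 to 69.1) and 52.7% of all genes had a thresholded summit. Without a partner the counts were 15 of 37 (40.5%, 24.8 to 57.9) and 28.6%. With a partner, the share of translation genes was near the background. Of the 40 own-promoter summits, 25 (62.5%) were also in another gene's promoter window, against 59.1% over all genes, and 12 of the 25 were nearer to a start of the translation gene than to any other. Counting only summits in no other gene's promoter window left 12 translation genes with an own-promoter summit (14.5%), against 10.6% of all genes. When each summit was given only to the gene with the nearest start, 25 translation genes (30.1%) kept a summit, against 28.1% of all genes.

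A TCT initiator, here CTTT preceded and followed by 2 pyrimidines with its C within 10 bp of a transcript start, was present at 8 translation genes, or 9.64% against 1.74% of all genes. These were eIF1A, eIF3c, eIF3e, eIF3f1, eIF3m, eEF1alpha1, eEF2 and ThrRS. All except eIF3e had a thresholded summit, 7 of 8 (87.5%, 47.3 to 99.7), against 59.3% of all genes with this initiator. Among ribosomal protein genes of the cytosol 70 of 92 had the initiator and 73 (79.3%) a thresholded summit. Beside these, 38 of 73 mitochondrial ribosomal protein genes (52.1%) and 17 of 48 proteasome genes (35.4%) had a summit.

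Sequences differed between promoter summits and the rest. At the 40 own-promoter summits the consensus with up to 1 mismatch was found 6 times (15%, 5.71 to 29.8), against 11.5% of all promoter summits, and never exactly. At the 16 summits in no promoter window it was found 8 times (50%, 24.7 to 75.3), against 32% of all such summits. These intervals include the shares of all summits of the same class. The 16 summits with the consensus, at 13 genes, had a median pooled rank of 1698, and the 50 without it 3780.5. Exact matches were at 2 summits, those of AspRS and eIF5B, or 3.03% (0.369 to 10.5) against 7.05% of all thresholded summits.

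The DREF element was at 9 of the 40 own-promoter summits (22.5%, 10.8 to 38.5), against 7.73% of all promoter summits. It was at 0 of the 16 in no promoter window (0 to 20.6), a class in which 0.499% of all thresholded summits had it. The summits with it had pooled ranks from 895 to 5214, and 1 of the 10 also had the su(Hw) consensus. Pairs of CGATA within 40 bp, which every DREF element also makes, were at 10 of the 40 (25%) against 15.8%, GGTCACAC at 3 (7.5%) against 5.13%, and the E-box CAGCTG at 1 (2.5%) against 11.1%. The element was also frequent in the promoters themselves. From 250 bp upstream to 50 bp downstream of a start, TATCGATA was present at 21 of 83 translation genes (25.3%, 16.4 to 36), against 10.2% of all genes. It was at 11 of the 31 with an own-promoter summit (35.5%, 19.2 to 54.6), against 16% over all genes. Of the 52 without, 10 had it (19.2%, 9.63 to 32.5), against 8.07%. The intervals of the translation genes with and without an own-promoter summit overlap. GGTCACAC was in 15.7% of these promoters against 8.7%, CAGCTG in 25.3% against 22.3% and the core TGCATA in 22.9% against 19.2%. These matches describe letters in a window and were not tested as binding sites.

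**Figure D4:**
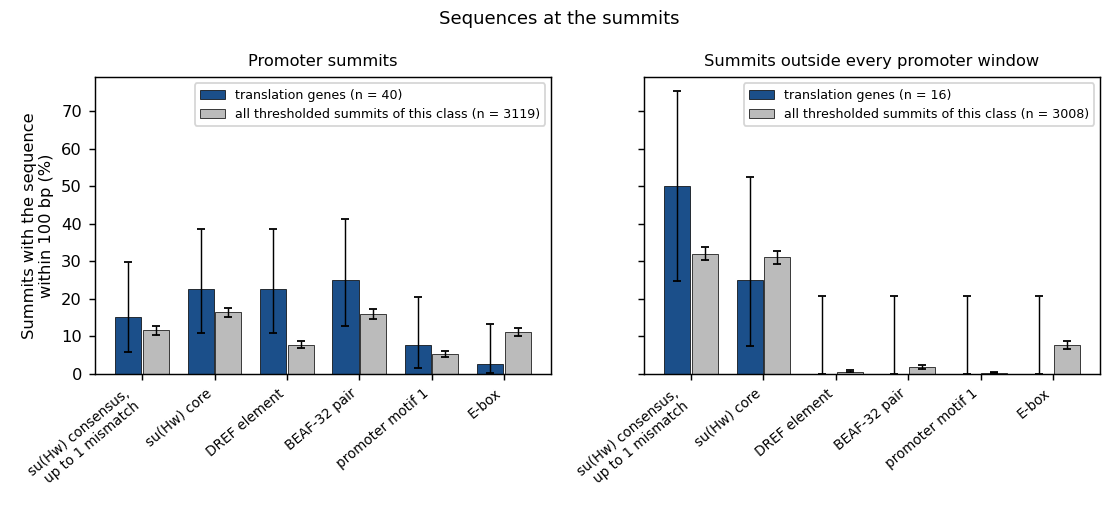
Percent of summits with each sequence within 100 bp (y axis) for translation genes (blue) and all thresholded summits of the class (grey), at promoters (left) and outside every promoter window (right), with exact 95% intervals as error bars. The DREF element stands at 22.5% against 7.73% at promoters, and the consensus at 50% against 32% outside them.

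By chromosome arm, thresholded summits were at 3 of 10 translation genes on X, 6 of 11 on 2L, 9 of 20 on 2R, 9 of 21 on 3L and 13 of 20 on 3R. The shares were 30% on X (6.67 to 65.2) against 36.2% of all genes there, 54.5% on 2L (23.4 to 83.3) against 34.3%, and 45% on 2R (23.1 to 68.5) against 38%. They were 42.9% on 3L (21.8 to 66) against 39.2%, and 65% on 3R (40.8 to 84.6) against 38%. The intervals of X, 2L, 2R and 3L include the share of all genes of the arm. All 7 other translation genes on X had an unthresholded summit, against 55.2% of all genes on X without a thresholded one. At the 1 kb limit, the summits nearest inside were 983, 917 and 865 bp from LeuRS-m, eIF2beta and eEF5, each with another summit as well. The nearest outside were 1161, 1201 and 1226 bp from AlaRS, eIF4G2 and eEF1alpha1, and of these AlaRS alone had no other thresholded summit.

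Further genes of translation outside the naming rule were counted in the same way. Of 35 found in the annotation, 18 (51.4%, 34 to 68.6) had a thresholded summit and 14 an own-promoter summit. The strongest were at GluProRS, the fused synthetase for glutamate and proline (pooled rank 1382; 1276, 1585 and 1493), MCTS1, a recycling and reinitiation factor (1458; 1868, 1416 and 1369), and the termination factor eRF3 (1891; 1344, 5078 and 1698). The partner of eRF3, eRF1, ranked 3031 (2676, 3640 and 3095), and Thor, the inhibitor that binds eIF4E, 2911 (3011, 2359 and 3419). The ribosomal scaffold Rack1 ranked 2526 (3690, 1875 and 2402). Stress kinases differed in class of site, with a thresholded summit of pooled rank 5711 (6542, 16339 and 5323) at Gcn2 and an unthresholded summit only at PEK. Unthresholded summits only were found at 9 of the 35 genes and none at 8.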

How the data were processed

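The authors deposited dm6 and dm3 peak lists, for each replicate, pooled, and thresholded by irreproducible discovery rate. The dm6 lists were used; the dm3 lists were not used here. The deposited signal, from the authors' peak caller, served for ranking within a list. The deposited −log10 q-value was not used to rank, since 4732 thresholded peaks shared the highest value. For aligner, peak caller and depth, nothing is given in the sources used here. The control was not analysed here. Chromatin was sonicated to fragments of 200 to 800 bp, per the labels.

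Genes came from Ensembl release 115 and sequence from the RefSeq Release 6 genome. Python 3.11.15, numpy 2.4.6, pandas 2.3.3 and scipy 1.17.1 were used, and summit assignment and sequence search were tested on simulated data. Every translation gene is accounted for. Replicate ranks of the strongest summit were given for the 15 genes with the strongest summits, genes with the consensus or several summits, the 6 genes with the strongest unthresholded summits only and a fixed list of core factors, with values added for others after they were seen. Shares are descriptions, with no tests. The members and lists were chosen with earlier results of these data known. Alternatives changed the flank, promoter window, peak set, gene assignment, matching distance and sequence window, and left out each replicate.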

Additional observations from a re-analysis of the deposited data

How the results depend on the processing

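Of 43 alternatives to the 6 main counts and distances, 37 stayed within 1.5 times the value reported. The 40 translation genes with a thresholded summit became 16 with no flank (19.3% against 14.3% of all genes). They became 26 with the strongest 3063 thresholded peaks (31.3% against 21.8%) and 25 with the nearest start only (30.1% against 28.1%). The 31 with an own-promoter summit became 17 with those strongest peaks and 12 when summits in another gene's promoter window were left out (14.5% against 10.6%). The 16 summits with the consensus became 2 with an exact match (3.03% against 7.05% of all thresholded summits). Each of these alternatives uses a smaller set or a stricter match, and the cause of the changes was not tested. Leaving out each replicate in turn gave 34 to 39 genes with a summit (41% to 47%, against 30.3% to 31.1% of all genes). Own-promoter summits were then at 26 to 28 genes. Shares of all genes were not counted for this range or for the 17 above. There were 49 to 57 top-ranked summits, 15 to 16 with the consensus and 19 to 21 genes with an unthresholded summit only. Median distances ran from 177 to 265 bp. The thresholded list itself still came from all 3 replicates. In the role groups, 71 of 100 alternatives stayed within 1.5 times. Elongation factors with a summit fell from 6 to 3 without replicate 3, and eIF2A and eIF2D from 2 to 1 without replicate 1 or 3. No paired analysis was possible because all samples belong to 1 group. A gene counted as having no summit had none among the 30000 peaks of the pooled list. Read depth is unknown, so such a gene cannot be called unbound. With 2 to 17 genes in a role group, differences between groups below the width of their intervals were not detectable.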
